A study of Mus musculus with 2 samples.

Results

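The Cyp2c genes encode a mouse subfamily of cytochrome P450 monooxygenases, and 10 of them were followed here in the liver of fenofibrate-fed mice that had or lacked the nuclear receptor PPARα. The members were every probe set whose platform gene symbol is 1 of the 10 listed genes, which gave 10 probe sets of 45037 that are not controls, 1 for each gene. For 9 genes the symbol matched directly. Cyp2c44 is carried by the platform as Cyp2c23, and was matched because RefSeq lists Cyp2c44 as a synonym of that gene. RefSeq (GRCm38.p6) names 15 coding Cyp2c genes, of which Cyp2c66, Cyp2c67, Cyp2c40 and Cyp2c69 had no named probe set, and Cyp2c65, which is not among the listed members, gave 24.3 in wild type and 23.1 in null, far under the detection floor described next.

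Both groups were 8-week-old male 129SvEJ mice on chow with 0.2% fenofibrate for 7 days, and they differed in genotype, wild-type or pparalpha -/- (Ppara-null). Liver RNA of 3 mice was pooled per genotype and each pool was hybridised to 1 Affymetrix array, so there are 2 arrays, 1 per group, and no replicate. Mice without the drug were not analysed here, so a genotype difference present without fenofibrate and a difference in the response to it cannot be told apart. In whole liver RNA, fewer cells of a type and less RNA per cell cannot be told apart either. Which part of the gene was disrupted, and whether in all cells, is not given in the sources used here.

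CYP2C enzymes sit in the endoplasmic reticulum membrane of hepatocytes and insert an oxygen atom into lipophilic substrates, with electrons passed on by P450 reductase and cytochrome b5. They are known for the clearance of drugs and for turning arachidonic and linoleic acid into epoxides and hydroxy acids. The epoxides of arachidonic acid (epoxyeicosatrienoic acids) are lipid mediators that soluble epoxide hydrolase, the product of Ephx2, opens to diols. Fenofibrate, a drug given to lower blood lipids, is a ligand of PPARα, a receptor that switches on genes of fatty acid oxidation.

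The 10 genes did not share a direction. Cyp2c38 and Cyp2c39 had the higher signal in wild type, by 3.54-fold and 2.34-fold, and the other 8 had the higher signal in null, led by Cyp2c54 at 3.26-fold and Cyp2c50 at 1.997-fold. All values are signal intensities on a linear scale, as deposited, and a difference is their log2 ratio, wild type over null. The detection floor is the median signal of each array, 287.8 in wild type and 269.4 in null, and all 10 probe sets lay above it on both arrays. A gene was called at 2-fold or more, which made 2 members higher in wild type and 1 lower. Over all 13041 measured genes, which reached the floor in wild type or null, 4.99% passed the threshold towards wild type (651 genes) and 2.80% towards null (365 genes). With 1 array per group there is no test and no replicate check on any difference.

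The promoters of 5 members are shown first, because likeness of sequence and likeness of the differences did not always go together. Each is the RefSeq sequence from 250 bases before to 50 bases after an annotated start (GRCm38.p6), written 5′ to 3′ along the gene. Capitals mark the letters TGTTTAC, the core bound by forkhead factors such as FOXA, and TATAAA, the letters of the TATA box. Both were searched on both strands and at any position. The first set holds the promoters of Cyp2c38 and Cyp2c39, the members higher in wild type, and of Cyp2c29, which resembles them but was not higher.

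Cyp2c38, chr19:39463026-39463325, minus strand: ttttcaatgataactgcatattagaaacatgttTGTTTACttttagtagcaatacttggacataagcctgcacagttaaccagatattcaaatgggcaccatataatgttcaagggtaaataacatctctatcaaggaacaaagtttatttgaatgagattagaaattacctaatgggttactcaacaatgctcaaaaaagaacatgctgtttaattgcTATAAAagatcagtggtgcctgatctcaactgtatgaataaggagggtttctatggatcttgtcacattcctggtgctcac

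Cyp2c39 first start, chr19:39347096-39347395, plus strand: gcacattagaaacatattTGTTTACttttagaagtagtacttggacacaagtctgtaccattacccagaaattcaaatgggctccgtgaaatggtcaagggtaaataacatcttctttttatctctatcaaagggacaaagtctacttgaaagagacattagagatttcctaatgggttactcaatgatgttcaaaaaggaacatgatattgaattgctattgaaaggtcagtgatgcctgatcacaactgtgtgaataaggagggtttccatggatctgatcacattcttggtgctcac

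Cyp2c39 second start, chr19:39510572-39510871, plus strand: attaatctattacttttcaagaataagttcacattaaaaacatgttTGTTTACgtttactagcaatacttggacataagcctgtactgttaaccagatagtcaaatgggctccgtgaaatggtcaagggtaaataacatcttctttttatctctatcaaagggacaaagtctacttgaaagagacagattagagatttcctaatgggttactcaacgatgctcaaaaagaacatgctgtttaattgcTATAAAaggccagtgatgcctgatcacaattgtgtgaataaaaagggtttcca

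Cyp2c29, chr19:39286835-39287134, plus strand: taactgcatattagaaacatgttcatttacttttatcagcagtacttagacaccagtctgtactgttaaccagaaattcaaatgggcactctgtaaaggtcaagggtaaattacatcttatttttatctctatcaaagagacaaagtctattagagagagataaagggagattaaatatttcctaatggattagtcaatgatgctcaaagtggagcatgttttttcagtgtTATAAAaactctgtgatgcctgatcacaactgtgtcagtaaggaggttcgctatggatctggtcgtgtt

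The second set is the most alike pair among the member promoters, Cyp2c37 and Cyp2c50, whose differences between the arrays were not alike. Cyp2c37 was dim, at 1.82 times the floor in wild type and 1.97 times in null, which limits this comparison.

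Cyp2c37, chr19:39992174-39992473, plus strand: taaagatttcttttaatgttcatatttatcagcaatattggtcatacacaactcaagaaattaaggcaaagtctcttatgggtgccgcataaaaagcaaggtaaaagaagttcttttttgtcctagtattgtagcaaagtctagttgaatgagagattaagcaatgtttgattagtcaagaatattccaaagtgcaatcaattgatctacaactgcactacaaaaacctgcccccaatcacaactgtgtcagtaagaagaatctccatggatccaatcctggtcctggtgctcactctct

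Cyp2c50, chr19:40089429-40089728, plus strand: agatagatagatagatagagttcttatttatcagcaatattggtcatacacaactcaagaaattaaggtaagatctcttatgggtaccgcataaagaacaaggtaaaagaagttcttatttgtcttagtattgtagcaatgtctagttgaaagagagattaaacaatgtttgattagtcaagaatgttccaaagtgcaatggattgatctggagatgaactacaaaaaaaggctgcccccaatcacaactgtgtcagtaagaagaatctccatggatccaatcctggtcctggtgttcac

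The table of promoters held 9 for 8 members, and Cyp2c54 and Cyp2c44 were not matched in it. In global alignments, the 6 pairs among the Cyp2c29, Cyp2c38 and Cyp2c39 promoters were 69.0% to 78.1% identical, and Cyp2c37 and Cyp2c50 were 86.6% identical. The other 29 pairs were 44.7% to 59.2% identical. Within the trio, Cyp2c38 was closest to the first start of Cyp2c39 (78.1%), and Cyp2c29 shared 70.8% with Cyp2c38.

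**Figure D1:**
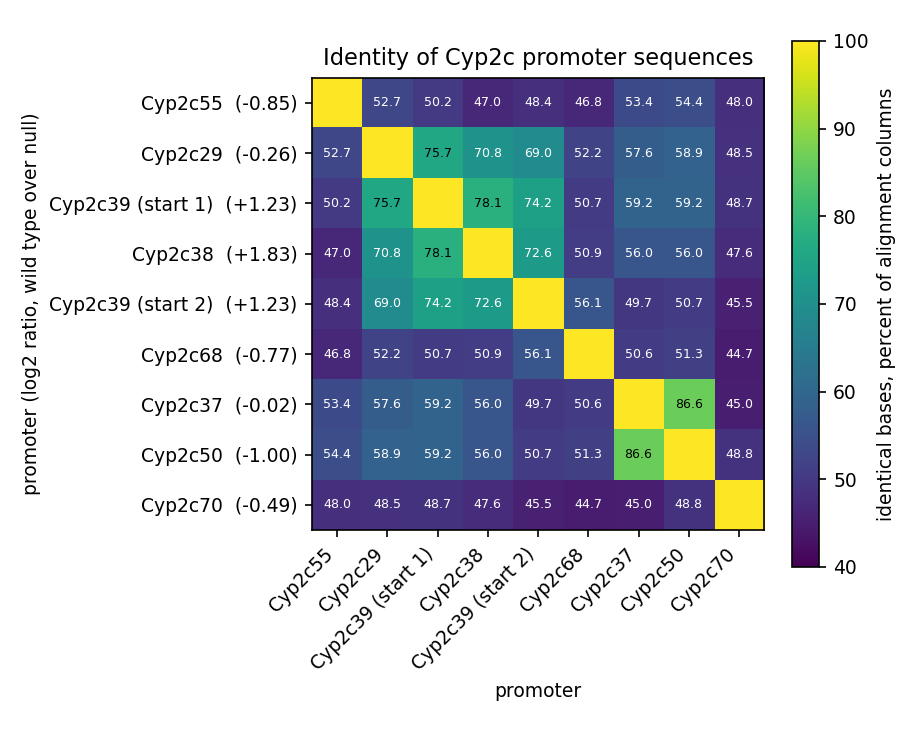
Identity of the 9 member promoters, as the percent of alignment columns with identical bases, with the log2 ratio of each gene beside its name. Cyp2c29, Cyp2c39 and Cyp2c38 form a block of 69.0% to 78.1%, and Cyp2c37 and Cyp2c50 stand out at 86.6%.

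Of the 9 member promoters, 3 held the forkhead core TGTTTAC, namely that of Cyp2c38 and both of Cyp2c39, which are the genes higher in wild type. The match began 217 bases before the start in Cyp2c38, and 232 and 204 bases before it in Cyp2c39. Cyp2c29 did not hold these letters. The core was present in 3.65% of all 32851 promoters of the same length. This motif was chosen with the differences already known, so the coincidence is a description. The TATA box letters TATAAA were found in 5 of the 9 (13.6% of all promoters). Counted from the start, they began at -31 in Cyp2c38, -29 in Cyp2c55 and -19 in Cyp2c29. In Cyp2c70 the match also began at -29, but it was on the opposite strand. At the second start of Cyp2c39 they began at -3. Whether each match acts as a TATA box was not tested.

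No member promoter held an exact DR1 element (AGGTCA repeated after a gap of 1 base, N), the form of site to which PPARα binds with RXR. It was present in 0.0396% of all promoters. The single nuclear receptor site AGGTCA, contained in that repeat, was present in 3 of 9 (16.3% of all), those of Cyp2c29, Cyp2c70 and the first start of Cyp2c39. The HNF4 core CAAAGTCCA was present in those of Cyp2c68 and Cyp2c70 (0.475% of all). The STAT5 site TTCNNNGAA (8.30% of all) was in 0 of 9. These searches cover only these letters in these windows.

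Among the members known as arachidonic acid epoxygenases, Cyp2c38 had the largest ratio towards wild type. Its signal was 10258 in wild type and 2894 in null, so the null array held 28.2% of the wild-type signal. The log2 ratio was 1.83, and 82 of 13041 measured genes (0.629%) lay at least as far in that direction. Both signals were well clear of the floor, at 35.6 and 10.7 times it.

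Cyp2c39, an epoxygenase that also oxidises retinoic acid, gave 18415 in wild type and 7870 in null. Its log2 ratio was 1.23, reached by 346 measured genes (2.65%). In RefSeq, Cyp2c38 lies wholly inside the span annotated as Cyp2c39, with the promoters of the genes on opposite strands. The probe sequences were not used here, so whether the probe sets of these neighbours bind each other's transcripts was not tested.

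Cyp2c29, a further epoxygenase and a gene known as a target of the xenobiotic receptor CAR, pointed the other way by a small margin. It gave 111795 in wild type against 133519 in null, a log2 ratio of -0.26. Of all measured genes, 28.7% lay at least as far in that direction. The ratio of Cyp2c38 thus exceeded that of Cyp2c29 by 2.08 on the log2 scale, or 4.23-fold, and that of Cyp2c39 exceeded it by 1.48, or 2.80-fold. Such differences between ratios are the same under any common scaling of an array.

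Cyp2c54 and Cyp2c50, neighbours at the far end of the cluster whose enzymes oxidise arachidonic and linoleic acid, were lower in wild type. Cyp2c54 gave 11779 in wild type against 38388 in null, a log2 ratio of -1.70. Only 38 of 13041 measured genes (0.291%) lay at least as far in that direction. Wild type therefore held 30.7% of the null signal of Cyp2c54.

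Cyp2c50 gave 31238 in wild type and 62385 in null. Its log2 ratio of -0.998 fell just short of the 2-fold threshold. It passed the threshold after median centring of the arrays (-1.09) and after quantile normalization (-1.01). Scaled to the hybridization controls, as described below, it was -0.62 and lay further from the threshold. The ratio of Cyp2c50 exceeded that of Cyp2c54 by 0.71 on the log2 scale. Cyp2c44, an epoxygenase of liver and kidney, gave 40505 in wild type against 44859 in null, a log2 ratio of -0.15 that 37.3% of measured genes reached or passed.

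Cyp2c37 and Cyp2c55 were the dimmest members. Cyp2c37, which forms a hydroxy acid from arachidonic acid, gave 524.5 in wild type against 530.5 in null, a log2 ratio of -0.02. Its signals were only 1.82 and 1.97 times the floor, and they were above the brightest spike-in control of Bacillus RNA on each array (316.5 and 422.4). The ratio of Cyp2c37 exceeded that of Cyp2c50, whose promoter it shares most closely, by 0.98 on the log2 scale. This gap rests on the dim signals of Cyp2c37. Cyp2c55, an arachidonic acid hydroxylase best known from the intestine, gave 452.9 in wild type and 815.9 in null. The log2 ratio was -0.85, and 4.72% of measured genes lay at least as far in that direction.

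Cyp2c70, which makes muricholic acids in the bile acid pathway of the mouse, gave 59858 in wild type against 83898 in null, a log2 ratio of -0.49. Cyp2c68 gave 27607 in wild type against 47028 in null, a log2 ratio of -0.77 that 6.06% of measured genes reached or passed. Both lay under 2-fold, and both were lower in wild type.

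**Figure D2:**
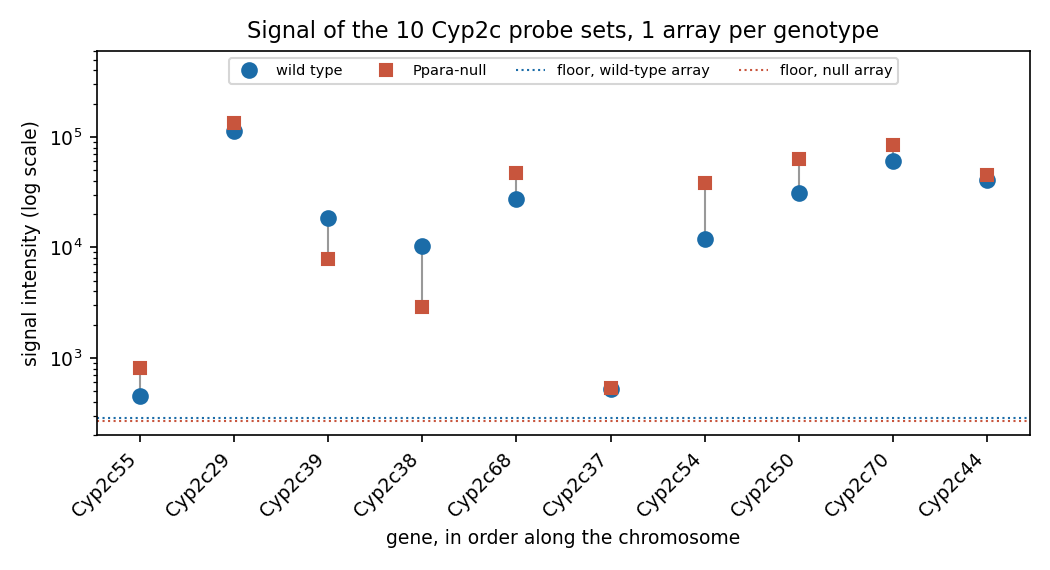
Signal intensity of each Cyp2c probe set on a log axis, with 1 circle for the wild-type array and 1 square for the Ppara-null array, and the floors of both arrays as dotted lines. The wild-type circle lies above the null square for Cyp2c39 and Cyp2c38, and Cyp2c37 and Cyp2c55 lie closest to the floors.

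Along chromosome 19 the direction changed between neighbours. RefSeq places 14 coding Cyp2c genes in a row from Cyp2c55 to Cyp2c70 with 0 other coding genes among them, and Cyp2c44 lies apart, beyond 52 further coding genes. Cyp2c39 and Cyp2c38 follow each other among the coding genes in order of start, and both were higher in wild type. They overlap in this annotation, with Cyp2c38 inside the span of Cyp2c39. Cyp2c29 lies on one side of them and, past the unmeasured Cyp2c67, Cyp2c68 on the other, and both were lower in wild type. Cyp2c54 and Cyp2c50, the members furthest in the lower direction, are adjacent in this order. From Cyp2c38 to Cyp2c54 the log2 ratios spanned 3.53, or 11.6-fold.

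**Figure D3:**
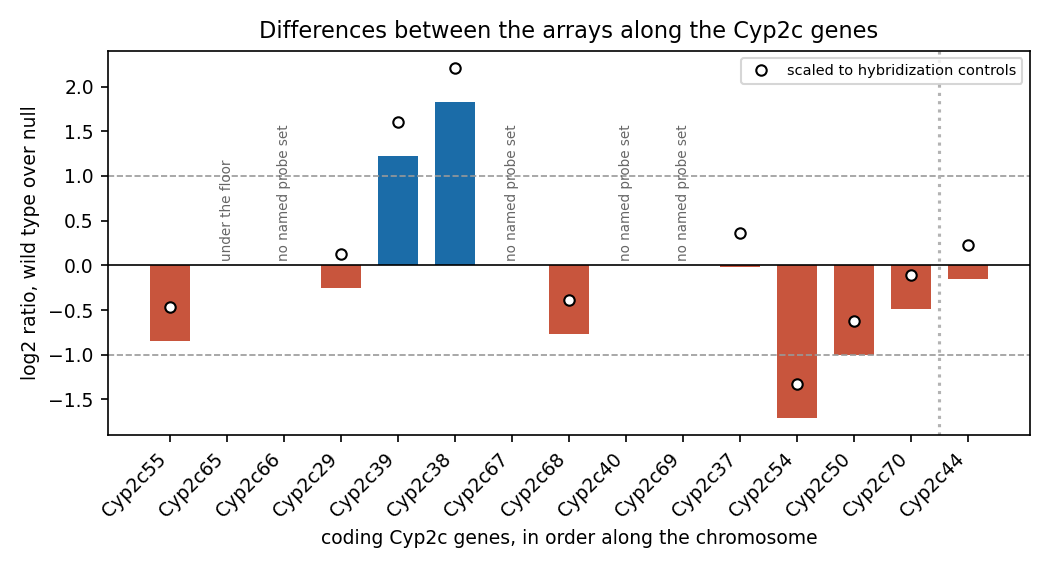
Log2 ratio of wild type over null for the 15 coding Cyp2c genes in their order along the chromosome, with bars for the deposited values, open circles for the values after scaling to the hybridization controls, and dashed lines at 2-fold. Cyp2c39 and Cyp2c38 point up, Cyp2c54 and Cyp2c50 are the lowest, and Cyp2c29, Cyp2c37 and Cyp2c44 cross 0 under the other scaling.

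As a group the members had a median log2 ratio of -0.37, with 8 of 10 negative. Over all measured genes, 6473 of 13041 were negative. The median of all measured genes was 0.005, and the middle 90% lay between -0.83 and 1.00. The log2 ratios had an SD of 1.05 over the 10 members and of 0.59 over all measured genes. The brightest 10% of the genes above the floor on both arrays, 1006 genes that include 7 of the members, had a median of -0.07, with 4.27% of them past 2-fold towards wild type and 1.59% towards null. Of these 1006 genes, 578 had a negative ratio.

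No error of a replicate can be given, but genes with several probe sets show how far readings of 1 transcript part on these arrays. Their log2 ratios had a pooled SD of 0.42 over 3917 genes above the floor on both arrays, and of 0.17 over 259 genes with probe sets as bright as that 10%. Under the deposited scaling, the differences of Cyp2c37 and Cyp2c44 exceeded neither value and that of Cyp2c29 only the smaller. Those of the other 7 members exceeded both. The smaller value comes from probe sets brighter than those of Cyp2c37, Cyp2c38 and Cyp2c55, so it is no measure for these 3. Cyp2c55 lay near the floor, at 1.57 times it in wild type and 3.03 times in null, where ratios spread widely. This SD leaves out the differences between mice and between pools, and no member has a second probe set.

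The 18 hybridization control probe sets, spiked in at a fixed amount, were all lower on the wild-type array, with a median log2 ratio of -0.38. Scaling to them raised the median of all measured genes to 0.38 and that of the members to 0.008, with 5 members positive and 5 negative. Cyp2c29 (0.12), Cyp2c37 (0.36) and Cyp2c44 (0.23) then changed sign. Cyp2c68 (-0.39) and Cyp2c70 (-0.11) no longer exceeded the pooled SD of 0.42. Cyp2c50 (-0.62) and Cyp2c55 (-0.47) still exceeded it but were under 2-fold. Cyp2c38 (2.20) and Cyp2c39 (1.61) remained past 2-fold, as did Cyp2c54 (-1.33), against a background of 13.5% of measured genes past the threshold towards wild type and 0.836% towards null. Higher genes made up 64.1% of all calls as deposited, 50% after median centring and 94.2% after scaling to these controls, so every direction given here is relative to the deposited scaling.

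**Figure D4:**
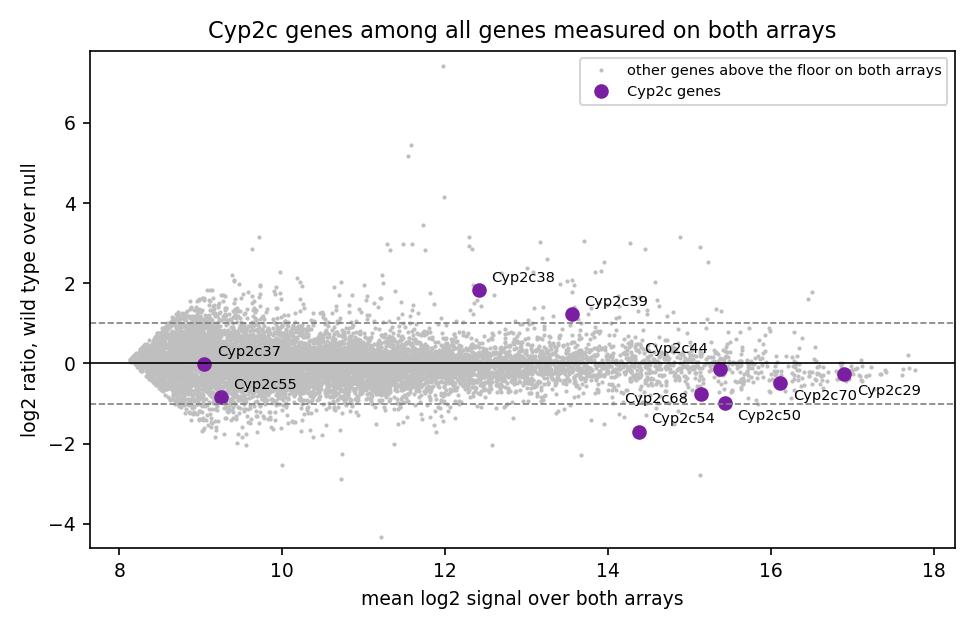
Log2 ratio of wild type over null against the mean log2 signal of both arrays, with the 10 Cyp2c genes in purple over the other genes above the floor on both arrays in grey, and dashed lines at 2-fold. Cyp2c38 and Cyp2c39 lie above the upper line and Cyp2c54 below the lower line, while Cyp2c37 and Cyp2c55 lie at the dim end where the grey points spread widely.

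The annotation gives little sign of probe sets shared between members, and cannot settle it. No probe set with several gene symbols held a Cyp2c gene. Of the 10 probe sets 9 carry the plain suffix _at, and the Cyp2c44 probe set carries _s_at, the platform's mark for a set that may match several transcripts. Of the 8 with a source accession, 5 are listed by RefSeq as a transcript of the same gene. Those of Cyp2c38, Cyp2c44 and Cyp2c70 are not RefSeq accessions, so this comparison could not match them. Cyp2c54 and Cyp2c68 have no source accession. The genes of this subfamily are close copies of each other, so each value may hold signal of a neighbour, including the 4 without a named probe set. Binding to neighbours was not tested.

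Xenobiotic P450 genes outside the subfamily, from the Cyp1, Cyp2 and Cyp3 families, gave no call at 2-fold under the deposited scaling and median floor. Of 42 listed genes 28 were measured, with 0 at least 2-fold higher, 0 at least 2-fold lower and a median log2 ratio of -0.24. Of the 19 above the floor on both arrays, 16 were lower in wild type, and the others have only a bound. Of all 10060 genes above the floor on both arrays, 5249 were lower. Cyp2e1, which oxidises ethanol, gave 152682 in wild type and 183551 in null, and Cyp3a11, a main drug oxidase of mouse liver, gave 149013 and 158617. The log2 ratios of the Cyp2c genes spanned 3.53, those of the 4 measured Cyp2b genes 1.60, those of the 8 measured Cyp2d genes 0.90 and those of the 4 measured Cyp3a genes 0.39. Of the 4 Cyp2b genes, Cyp2b10 alone was above the floor on both arrays, so the other ratios of that subfamily are bounds. The ratios of Cyp2d12, Cyp2d34 and Cyp3a44 are bounds too, so these spans may be wider. A span also tends to grow with the number of genes. Scaled to the hybridization controls, this list had a median of 0.14 and 1 gene at least 2-fold higher. After median centring, 1 was at least 2-fold lower. With the floor at the 25th percentile or without a floor, 2 were higher and 4 lower.

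**Figure D5:**
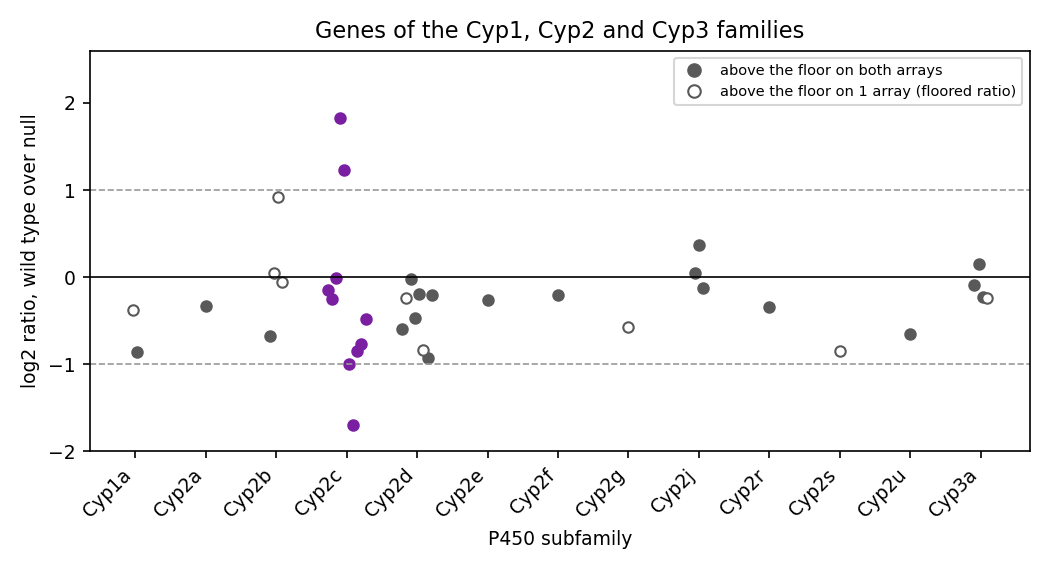
Log2 ratio of wild type over null for the measured genes of each P450 subfamily, with filled points for genes above the floor on both arrays, open points for genes above it on 1 array, and dashed lines at 2-fold. Cyp2c38, Cyp2c39 and Cyp2c54, among the purple points, are the only genes past the dashed lines under the deposited scaling and median floor.

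Genes that act before or after CYP2C enzymes differed in their directions. Of 13 measured genes of electron supply and haem synthesis, 1 was at least 2-fold higher, 0 were lower and the median log2 ratio was -0.02. That gene was Ppox, protoporphyrinogen oxidase (641.4 against 280.6, wild type against null), whose null signal lay near the floor. Its other 2 probe sets were under the floor in wild type (20.4 and 229.9) and above it in null (329.5 and 316.8). With the floor at the 75th percentile or at the brightest Bacillus control, or with the median over probe sets, 0 genes of this list were higher. The brightest by mean log2 signal over both arrays, the order used for each list below, were Cyb5a, cytochrome b5 (90281 against 107606), and Pgrmc1, a haem-binding partner of P450 enzymes (93789 against 99950). Of 13 measured genes of epoxyeicosanoid metabolism, 2 were higher and 1 lower, with a median of 0.05. Ephx2, which opens the epoxides made by CYP2C enzymes, was 2.46-fold higher in wild type (67224 against 27377). The fatty acid hydroxylase Cyp4a14 was at least 389-fold higher (104679 in wild type, with the null signal under the floor) and Cyp4f14 was 2.27-fold lower (7073 against 16087). Scaled to the hybridization controls, 0 genes of this list were at least 2-fold lower. The brightest by mean log2 signal were Cyp2j5, a further epoxygenase (51123 against 49465), and Cyp4a12a, an arachidonic acid hydroxylase (59742 against 39416).

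Of 23 measured receptors and transcription factors known to act on Cyp2c genes, 18 had the lower signal in wild type, 1 was at least 2-fold higher and 1 at least 2-fold lower. All 23 were above the floor on both arrays, and of all 10060 such genes 5249 had the lower signal. The median log2 ratio of the 23 was -0.26, or 0.12 after scaling to the hybridization controls. The gene called higher was Ppara itself, the gene disrupted in null, so this call follows from the design. It gave 7957 in wild type and 3414 in null, and its other probe sets gave 5833 against 2953 and 4312 against 1551. The clock-controlled factor Dbp was 2.71-fold lower (2442 against 6605), and its other probe set had a log2 ratio of -0.91. Without probe sets marked _x_at or _s_at, 0 genes of this list were at least 2-fold lower. The brightest were Hnf4a (28062 against 34696), a master factor of hepatocytes whose other probe sets gave 0.16, -0.47 and -0.03, and Cebpa (9739 against 13351). The xenobiotic receptors Nr1i3 (CAR; 9363 against 9585) and Nr1i2 (PXR; 1862 against 1714), named here after their values were seen, had log2 ratios of -0.03 and 0.12.

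Growth hormone signalling sets the sex bias of many liver P450 genes. Of its 10 measured genes 0 were at least 2-fold higher and 1 was lower, with a median log2 ratio of -0.36, or 0.02 after scaling to the hybridization controls. The gene was Cux2, a transcription factor of female liver, at least 2.03-fold lower, with 263.8 in wild type under the floor and 583.4 in null. That call was lost when the floor was set at the 75th percentile or at the brightest Bacillus control, and under hybridization control scaling, each of which left 0 genes of this list lower. The brightest were Igf1 (50152 against 51188) and the growth hormone receptor gene Ghr (43317 against 58417).

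Known PPARα target genes, listed for comparison, were higher in wild type in 17 of 21 measured cases at 2-fold or more and lower in 0, with a median log2 ratio of 1.93. The largest after Cyp4a14 were Vnn1 (172-fold, with a null signal of 307.4 under the brightest Bacillus control), Cyp4a31 (43.4-fold), Cd36 (17.8-fold), Ehhadh (7.46-fold) and Eci1 (7.17-fold). The brightest were Acaa1b, a peroxisomal thiolase (171746 against 50074), and Fabp1, the liver fatty acid binding protein (226036 against 194332). The log2 ratio of Cyp2c38 lay near the median of this list, and that of Cyp2c39 below it.

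All 9 hepatocyte markers measured had the lower signal in wild type, with log2 ratios from -0.68 to -0.14, a median of -0.39 and a summed signal of 1027400 against 1253000. The small differences of Cyp2c29, Cyp2c44 and Cyp2c70 lay inside that range. Kupffer cell markers were lower in 6 of 6 cases above the floor on both arrays (Cd5l 2.12-fold), and Cd68 was above it in wild type alone (373.5 against 204.3). This list had a summed signal of 15190 against 22046. Endothelial markers were lower in 3 of 5 and stellate cell markers in 3 of 6. The medians of these lists over their measured genes were -0.62, -0.008 and -0.10, and Pecam1 was at least 2.36-fold higher. Of the other lists, cholangiocyte markers had 3 measured genes (median -0.24), lymphocyte markers 2 (0.58, with Ptprc 2.26-fold higher), intestinal markers 1 (Cdx2, 1.04) and kidney markers 3 (0.80). Vil1, Fabp6 and Muc2 of intestine and Umod of kidney were under the floor on both arrays. The part of these cell types in the Cyp2c values was not tested.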

How the data were processed

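The deposited table holds 1 signal intensity per probe set and array. Per the labels, the authors summarised probe sets with the statistical algorithm of Affymetrix and scaled each array, over all probe sets, to a target of 1000; the mean without the lowest and highest 2% was 1000.01 on each array. The software version is not given in the sources used here, detection calls were not used, and the number of arrays limits the precision. Symbols are those of the 2016 platform annotation (34945 probe sets with 1 symbol, 932 with several, 9160 with none), and probe sets with several symbols or none entered no gene value. Before log2 ratios were taken, lower signals were set to the floor, and a gene was represented by its probe set of highest mean log2 signal. Named were all members, the list genes past 2-fold (at most 6 per list) and the 2 brightest of each list. Members, lists, markers and alternatives were chosen with earlier results of these data known. No genes of like pattern were sought, since 2 arrays give no pattern. Alternatives were 3 array scalings, 4 floors, the median over probe sets, omission of _x_at and _s_at probe sets, and thresholds of 1.5-fold and 3-fold. Promoters were aligned globally with Biopython 1.88 (match 2, mismatch -1, gap opening -5, gap extension -0.5), in Python 3.11.15.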

Additional observations from a re-analysis of the deposited data

How the results depend on the processing

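Each of the 87 values of single Cyp2c genes under 9 alternatives of scaling, floor and probe set moved by less than the scatter between probe sets of a gene (SD 0.42). Much of this was fixed in advance. Each member has 1 probe set, and every value kept lay above the floor on both arrays. The floors and choices of probe sets therefore left those values unchanged. Median centring and scaling to the hybridization controls shift all members alike. Cyp2c38 lay between 1.73 and 2.20, Cyp2c39 between 1.13 and 1.61 and Cyp2c54 between -1.80 and -1.33. Cyp2c29, Cyp2c37 and Cyp2c44 changed sign when scaled to the hybridization controls, and the other 7 kept theirs. Cyp2c37 and Cyp2c55 had no value with the floor at the 75th percentile, and Cyp2c44 none without _s_at probe sets. Members at least 2-fold lower numbered 2 after median centring and 2 after quantile normalization, through Cyp2c50. At 1.5-fold, 4 members were lower, and at 3-fold, 1 was higher. Over all measured genes, higher and lower calls numbered 1759 and 109 under scaling to hybridization controls, 2336 and 1650 with the floor at the 25th percentile, 157 and 98 at the 75th, 3096 and 2177 without a floor, 1925 and 1438 at 1.5-fold, and 132 and 58 at 3-fold. With the floor at the brightest Bacillus controls, 297 were higher and 303 lower. Fewer or more genes tested, or a lower or higher threshold, are part of the construction of the floors and thresholds. For the scalings, the cause was not tested. Of 186 values of the comparison lists, 27 moved, all of them counts of genes. A count was taken as moved when it changed by more than 1.5-fold, or from none or to none. No list median moved by more than the SD of 0.42. No paired analysis was possible because each group has 1 array and the labels give no replicate numbers.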
